A study of Mus musculus with 4 samples.

Results

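The KDM5 and KDM6 genes encode histone demethylases of the JmjC type. KDM5 enzymes remove methyl groups from lysine 4 of histone H3 (H3K4), a mark of active promoters, and KDM6 enzymes act on lysine 27 (H3K27), the mark set by Polycomb repressive complex 2 (PRC2). Both families have autosomal members and a pair of sex-linked members, 1 on the X and 1 on the Y chromosome, that descend from the same ancestral gene. In pachytene spermatocytes the X and Y chromosomes are transcriptionally silenced, a state called meiotic sex chromosome inactivation, while autosomes are transcribed. The members therefore lie on both sides of that division.

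The members were the rows of the expression table whose gene symbol was Kdm6a (also called Utx), Kdm6b or Uty in the KDM6 family and Kdm5a, Kdm5b, Kdm5c or Kdm5d in the KDM5 family. All 7 were found among the 23420 symbols, 4 of them sex-linked and 3 autosomal. The cells were pachytene spermatocytes that had been enriched by FACS from testes of WT C57BL/6 mice (age 23 weeks). They were kept in culture for 24 h, either with DMSO (Ctrl, n = 2) or with 10 μM AZ20, an inhibitor of the checkpoint kinase ATR (n = 2). Each mouse gave cells to both conditions, so replicate 1 of Ctrl and replicate 1 of AZ20 form a pair, as do the replicates numbered 2. The question put to these libraries was whether silent sex-linked genes depend on continued ATR signaling. Values are TPM, the reads of a gene scaled for its length and for the total of its library, so levels can be compared between genes. Libraries held approximately 14657195 to 21361980 reads on genes, as recovered from the TPM.

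In every library all 8 markers of pachytene spermatocytes were present, with a summed level of 11558 to 11858 TPM, and 0 of the 8 were called (8 of 8 were tested). Of the 6 listed markers of Sertoli cells, 2 (Sox9, Wt1) were at 0 in all 4 libraries. Cldn11 was above 0 in all 4, and the Sertoli list summed to 0.0463 to 0.934 TPM. Of the 5 listed markers of Leydig cells, 4 were at 0 in all 4 libraries, and Star was at 0.866 to 2.31 TPM. Of the 7 spermatogonia markers, 3 (Stra8, Dmrt1, Sohlh1) were at 0 in all 4, and the list summed to 7.99 and 20.5 TPM in Ctrl and to 12.7 and 14.9 TPM in AZ20, most of it Uchl1. The 6 markers of round spermatids, the later haploid cells, summed to 175 and 69.6 TPM in Ctrl and to 348 and 130 TPM in AZ20. The lists for macrophages and peritubular myoid cells did not exceed 1.34 and 4.60 TPM in any library. The part of these cells in the values below was not tested. In bulk RNA, fewer transcribing cells and less RNA per cell cannot be told apart.

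Promoters are shown for the sex-linked members, because these 4 genes lie on the silenced chromosomes and are compared with their partners below. Each run spans 250 bases before to 50 bases after the RefSeq start (GRCm38.p6), 5′ to 3′ on the strand of the gene. Capitals mark the best local alignment between the X-linked gene and its Y-linked partner. RefSeq promoters were found for 5 of the 7 members. Where a gene had several RefSeq starts, the first listed was used and the others were not searched. For Kdm5c that start lies downstream of the gene start at 152233020 given below. Most of its window therefore falls inside the gene.
Kdm6a (chrX:18162325-18162624, + strand): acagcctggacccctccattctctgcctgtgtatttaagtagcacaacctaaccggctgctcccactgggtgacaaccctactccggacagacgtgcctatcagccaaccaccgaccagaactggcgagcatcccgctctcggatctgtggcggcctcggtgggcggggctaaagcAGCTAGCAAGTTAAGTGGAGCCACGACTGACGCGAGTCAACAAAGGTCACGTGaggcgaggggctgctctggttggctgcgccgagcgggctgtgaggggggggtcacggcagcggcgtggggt
Uty (chrY:1245710-1246009, − strand): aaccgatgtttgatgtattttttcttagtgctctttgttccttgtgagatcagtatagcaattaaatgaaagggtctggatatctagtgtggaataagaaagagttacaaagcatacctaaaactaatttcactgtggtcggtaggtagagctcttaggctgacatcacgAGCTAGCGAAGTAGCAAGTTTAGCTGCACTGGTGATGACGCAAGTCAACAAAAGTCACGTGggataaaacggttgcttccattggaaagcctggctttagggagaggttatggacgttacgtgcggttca
Kdm5c (chrX:152232977-152233276, + strand): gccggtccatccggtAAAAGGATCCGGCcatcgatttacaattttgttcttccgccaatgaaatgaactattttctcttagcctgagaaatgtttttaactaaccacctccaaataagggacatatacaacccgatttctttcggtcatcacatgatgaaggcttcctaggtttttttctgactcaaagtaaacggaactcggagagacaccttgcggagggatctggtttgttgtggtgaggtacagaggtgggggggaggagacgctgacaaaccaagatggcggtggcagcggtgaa
Kdm5d (chrY:897538-897837, + strand): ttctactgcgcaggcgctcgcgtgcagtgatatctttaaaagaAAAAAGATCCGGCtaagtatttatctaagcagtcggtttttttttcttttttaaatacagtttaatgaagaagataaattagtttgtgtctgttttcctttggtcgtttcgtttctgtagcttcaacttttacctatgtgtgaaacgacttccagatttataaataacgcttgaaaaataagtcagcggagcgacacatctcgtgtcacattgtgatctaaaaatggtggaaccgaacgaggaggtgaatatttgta

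Kdm6a and Uty shared a block of promoter next to the start, with 47 of 62 aligned positions identical (75.8%). The block ended in both genes with the palindromic E-box letters CACGTG, which began 27 bases before the start of Kdm6a and 25 bases before that of Uty. It held the 10-base run AGTCAACAAA, found on either strand in 32 of 32851 RefSeq promoters (0.0974%), and CACGTG was found in 7.15% of them. The 10-base run was picked as the longest that the promoters of Kdm6a and Uty share, so its rarity is not a test. Kdm6a and Kdm5b, which are not partners, shared a run of 9 bases. In the windows shown, Kdm5c and Kdm5d had no block like that of Kdm6a and Uty, but that of Kdm5c lies mostly inside the gene. Their best alignment covered 13 positions, of which 12 were identical, and its score of 21 was no higher than the 21 between Uty and Kdm5c, which are not partners. Among the other X and Y partner genes with promoters, Eif2s3x and Eif2s3y aligned over 50 positions (74.0% identical) and the rest over 12 to 24.

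The other letters searched, on both strands, were the GC box GGGCGG (in 35.7% of all promoters), CCAAT (37.4%), AAGATGG (6.34%) and TAACNG (23.3%), all chosen after the promoters had been seen. The GC box was present in Kdm6a and in the autosomal Kdm5b, 89 bases before the start in both. CCAAT was present in Uty and Kdm5c. AAGATGG was found in Kdm5c, 27 bases after the RefSeq start used, and TAACNG in Kdm6a and Kdm5b. CpG dinucleotides numbered 21 in Kdm6a, 17 in Kdm5b, 15 in Kdm5d, 13 in Kdm5c and 10 in Uty, against a median of 7 over all promoters. These are matches of letters and were not tested for binding.

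Coding sequences were closer between partners than to the autosomal paralogs. Over aligned bases, Kdm6a and Uty were 83.7% identical and Kdm5c and Kdm5d 77.7%, against 61.1% for Kdm6a and Kdm6b and 65.3% for Kdm5c and Kdm5a. Reads were 150 bp in length and only unique alignments were kept. No 150-base window of the longest Kdm6a, Uty, Kdm5b, Kdm5c or Kdm5d transcript occurred in a transcript of another gene, so partners were separable at that length. Kdm5a shared 251 exonic bases with Ccdc77 and Kdm6b shared 286 with Kdm6bos, both on the opposite strand. Whether the counting used strand is not given in the sources used here, so reads from those stretches cannot be told apart.

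Without AZ20 the autosomal members made up almost all of either family. With AZ20 the X-linked Kdm5c and Kdm6a and the Y-linked Uty were higher, though only Kdm5c was called. Of the 6 members with a mean above 1 TPM in either condition, limma on log2(TPM + 1) called 1 (Kdm5c) higher with AZ20 and 0 lower. A call needed a 2-fold or larger change and, after Benjamini-Hochberg adjustment, p under 0.05. Over all 10316 genes tested, 2.28% were called higher and 0.0485% lower. The share called higher was 63.3% of 341 X-linked genes, 75.0% of 8 Y-linked genes and 0.101% of 9937 autosomal genes, of which 0.0503% were lower. At an unadjusted p under 0.05, 3 of the 6 members were higher and none was lower. These 3 were the sex-linked ones. By the same criterion, 8.03% of all genes tested, 88.9% of X-linked genes, 87.5% of Y-linked genes and 5.16% of autosomal genes were higher. Kdm6a, Uty and Kdm5c averaged 0, 0.133 and 0.0494 TPM in Ctrl and passed the filter only through AZ20. Their upward direction was thus fixed by the filter, and Kdm5d, below 1 TPM in both conditions, was left out. The X- and Y-linked genes tested had Ctrl medians of 0.0944 and 0.173 TPM, so this also holds for many of them. With the replicate number as a block in the fit, Kdm5c was again the 1 member called, beside 4.11% of all genes and 81.8% of X-linked genes. On the log2(TPM + 1) scale, changes of genes near 1 TPM are understated.

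**Figure D1:**
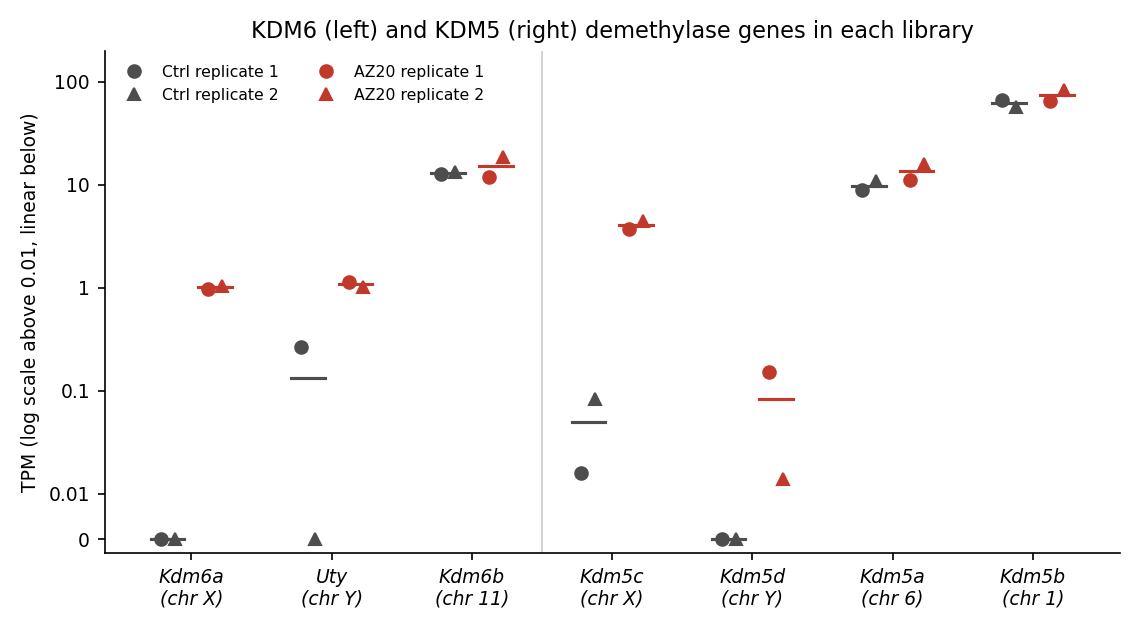
TPM of each member in each library, on an axis that is logarithmic above 0.01 and linear below, with grey symbols for Ctrl and red for AZ20, circles for replicate 1, triangles for replicate 2 and bars for group means. The 3 autosomal members lie between 8.85 and 83.0 TPM in all 4 libraries, while Kdm6a, Uty and Kdm5c lie at or below 0.265 TPM in Ctrl and between 0.980 and 4.43 TPM in AZ20.

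Among the KDM6 genes, Kdm6a encodes the X-linked H3K27 demethylase (X:18162575-18279936). It was at 0 TPM in both Ctrl libraries and at 0.980 and 1.04 TPM in AZ20 replicates 1 and 2. These correspond to 0 reads in Ctrl and to 75 and 72 reads in AZ20. Both AZ20 libraries thus lay above both Ctrl libraries, which also held for 26.4% of all genes tested and 91.2% of X-linked genes. Against a floor of 3 reads in each Ctrl library, Kdm6a was at least 19.1-fold higher with AZ20. The change was 1.01 ± 0.34 (SE) on the log2(TPM + 1) scale, with a 95% interval of 0.20 to 1.82, and was not called (limma adjusted p = 0.395). It was called when the recovered reads were fitted with voom and limma (log2 change 6.82, adjusted p = 0.0280), where 2.23% of all genes and 61.3% of X-linked genes were called higher. With the replicate block added to the voom fit its adjusted p was 0.00107, beside 3.32% of all genes and 80.9% of X-linked genes called higher. Kdm6a passed the 1 TPM filter only through its AZ20 mean of 1.01 TPM, so few tested genes could lie lower. Among the X-linked genes tested, 1.17% had a lower AZ20 level and 11.1% a smaller change. These ranks are largely set by the filter.

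Uty, the Y-linked partner of Kdm6a (Y:1096861-1245759), encodes a protein with little demethylase activity. Its level was 0.265 and 0 TPM in Ctrl and 1.14 and 1.01 TPM in AZ20. Reads numbered 14 and 0 in Ctrl and 87 and 69 in AZ20. Both AZ20 libraries lay above both Ctrl libraries, as in 26.4% of all genes tested and 87.5% of the 8 Y-linked genes. Ctrl replicate 1 held reads of Uty while Ctrl replicate 2 held none. Within the first pair the read level was 4.31-fold higher with AZ20 (95% interval 2.44 to 8.21, counting error only), and within the second it was at least 20.2-fold higher. The change of 0.88 ± 0.35 on the log2(TPM + 1) scale (95% interval 0.06 to 1.71) was not called (limma adjusted p = 0.506), nor was it called on the recovered reads with voom (adjusted p = 0.188). Of the 8 Y-linked genes tested, 12.5% had a smaller change than Uty and none had a lower AZ20 level. Uty passed the 1 TPM filter only through its AZ20 mean of 1.08 TPM, so the filter largely sets these ranks. The Y-linked Kdm5d, at a mean of 0.0824 TPM in AZ20, was not among the genes tested.

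Kdm6b (11:69398508-69413675) encodes the autosomal H3K27 demethylase JMJD3. Its level was 12.8 and 13.3 TPM in Ctrl and 11.9 and 18.7 TPM in AZ20, so the AZ20 libraries fell on either side of Ctrl. The change was 0.18 ± 0.27 on the log2(TPM + 1) scale (95% interval −0.46 to 0.82, limma adjusted p = 0.913). It was the most abundant KDM6 gene in all 4 libraries.

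Among the KDM5 genes, Kdm5c (X:152233020-152274535), an X-linked H3K4 demethylase, was the 1 called higher. It was at 0.0158 and 0.0830 TPM in Ctrl and at 3.73 and 4.43 TPM in AZ20. Reads numbered 1 and 6 in Ctrl and 340 and 364 in AZ20. The groups lay far apart relative to the spread within them. Pooled over libraries, the read level was 78.6-fold higher with AZ20 (95% interval 38.0 to 196, counting error only), with 236-fold in the first pair (42.1 to 9347) and 53.3-fold in the second (24.3 to 146). The change on the log2(TPM + 1) scale was 2.27 ± 0.31 (95% interval from 1.54 to 3.0, limma adjusted p = 0.00933). With any 1 of the 4 libraries left out, the change was 2.17 to 2.37 and was not called (adjusted p 0.0709 to 0.0935). Those fits have 1 library in a group and assume that it varies like the others, and without either AZ20 replicate they called no gene at all. Kdm5c was not extreme among the X-linked genes tested, since 41.6% of them had a smaller change and 37.8% a lower AZ20 level.

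Kdm5d (Y:897788-956786) is the Y-linked partner of Kdm5c and also encodes an H3K4 demethylase. It was at 0 TPM in both Ctrl libraries and at 0.151 and 0.0139 TPM in AZ20, which correspond to 12 reads and 1 read. Its mean was below 1 TPM in either condition, so it was not tested. Against a floor of 3 reads in Ctrl it was 2.78-fold higher in AZ20 within the first pair. With the counting error of both libraries included, the lower limit of this ratio was 1.93-fold. In AZ20 replicate 2 Kdm5d was below the floor, and no difference was detectable at that depth.

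Kdm5a (6:120364124-120444574), the autosomal demethylase first known as a partner of the retinoblastoma protein, was at 8.85 and 10.8 TPM in Ctrl and at 11.1 and 15.95 TPM in AZ20. Both AZ20 libraries were above both Ctrl libraries, as in 24.1% of autosomal genes tested. Its change was 0.41 ± 0.26 on the log2(TPM + 1) scale (95% interval −0.22 to 1.04, limma adjusted p = 0.751). Kdm5b (1:134560171-134635285) was the most abundant member, at 66.2 and 57.1 TPM in Ctrl and 65.5 and 83.0 TPM in AZ20, and its groups overlapped. Its change was 0.26 ± 0.20 (95% interval −0.22 to 0.74, limma adjusted p = 0.809). Neither interval excluded a change of up to 1.5-fold, and that of Kdm5a reached 2-fold.

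**Figure D2:**
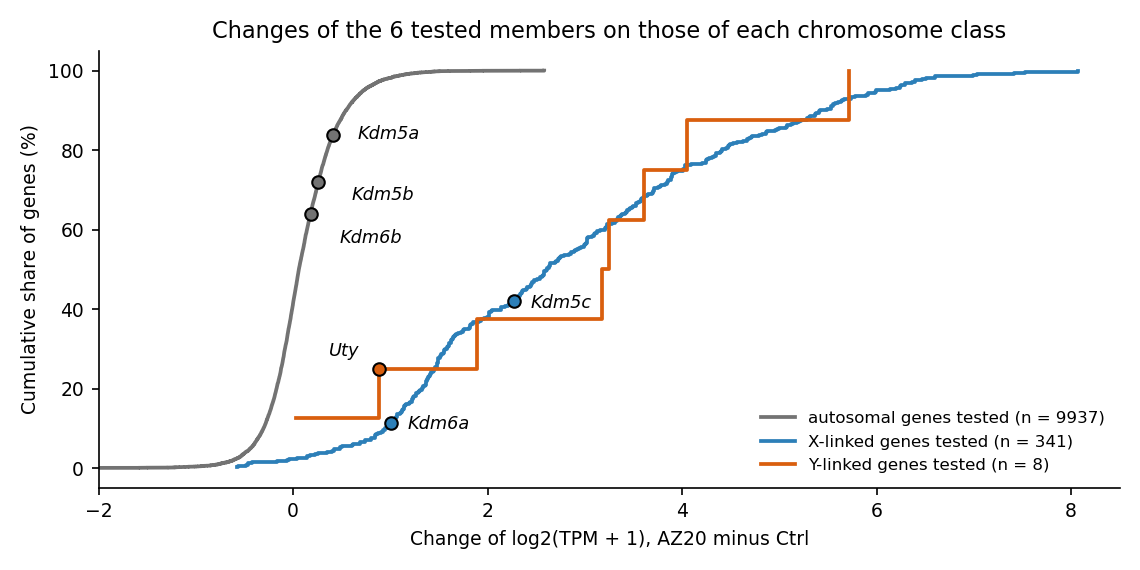
Cumulative share of genes (y axis, %) with a change up to the value on the x axis (log2(TPM + 1), AZ20 minus Ctrl) for autosomal (grey, n = 9937), X-linked (blue, n = 341) and Y-linked genes (orange, n = 8), with the 6 tested members as points on the curve of their class. The 3 autosomal members lie between 0.18 and 0.41, Kdm6a and Uty at 1.01 and 0.88 near the low end of their curves, and Kdm5c at 2.27 close to the middle of the X-linked curve.

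Each sex-linked member was then set against its autosomal paralogs within the same library, in 6 pairs of genes. The contrast is the log2(TPM + 1) level of the sex-linked gene minus that of the paralog. It was higher with AZ20 by 0.83 ± 0.28 (SE) for Kdm6a against Kdm6b and by 0.70 ± 0.40 for Uty against Kdm6b. For Kdm5c it was higher by 1.86 ± 0.17 against Kdm5a and by 2.01 ± 0.17 against Kdm5b. In these 4 contrasts both replicate pairs had the same sign, from 0.54 to 2.23. Kdm6a, Uty and Kdm5c were near 0 TPM in Ctrl, so the sign had little room to differ and is not a test. Each of the 4 contrasts gave the smallest two-sided exact permutation p that 2 against 2 libraries allow (0.333, adjusted over the 6 pairs 0.5), so the design cannot pass 0.05. For Kdm5d the contrast was −0.30 ± 0.36 against Kdm5a (exact permutation p = 0.667) and −0.15 ± 0.28 against Kdm5b (exact permutation p = 1.0).

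With AZ20 the sex-linked genes stayed below their paralogs in level. In AZ20 replicates 1 and 2, Kdm6a reached 8.24% and 5.58% of the Kdm6b TPM and Uty 9.63% and 5.38%. Kdm5c reached 33.7% and 27.7% of the Kdm5a level, but 5.69% and 5.33% of that of Kdm5b. The order of the members by mean TPM in AZ20 was Kdm5b, Kdm6b, Kdm5a, Kdm5c, Uty, Kdm6a and Kdm5d. The ranges of Kdm6b and Kdm5a overlapped in AZ20, although within a library Kdm6b was 1.07 to 1.45 times Kdm5a in all 4. Kdm6a was 0.856 and 1.04 times Uty in the AZ20 libraries, so these neighbours do not differ beyond their spread. In Ctrl the order of the 3 autosomal members was the same.

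As a share of the whole family, Kdm6a and Uty together supplied 2.03% and 0% of the KDM6 TPM in Ctrl and 15.2% and 9.88% in AZ20. Kdm5c and Kdm5d supplied 0.0211% and 0.122% of the KDM5 TPM in Ctrl and 4.82% and 4.29% in AZ20. The shares did not overlap between conditions in either family (exact permutation p = 0.333 for each, the smallest possible). Kdm6a, Uty and Kdm5c were near 0 TPM in Ctrl, so this had little room to fail and is not a test. Both AZ20 libraries lay above both Ctrl libraries in 26.4% of all genes tested, 91.2% of X-linked genes and 87.5% of Y-linked genes. Summed levels were 13.2 ± 0.152 (SD, n = 2) TPM in Ctrl and 17.4 ± 4.75 TPM in AZ20 for KDM6, and 71.5 ± 5.01 and 91.9 ± 16.2 TPM for KDM5. Most of the KDM5 level was Kdm5b in each library. The sex-linked part was 2.09 ± 0.0540 TPM for KDM6 and 4.16 ± 0.395 TPM for KDM5 in AZ20.

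**Figure D3:**
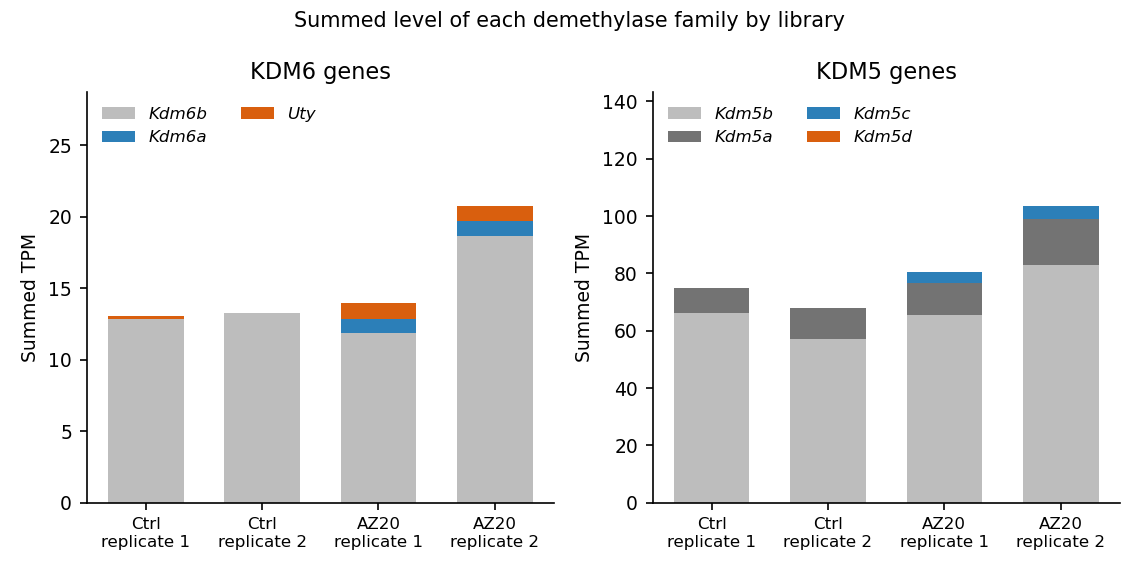
Summed TPM of the KDM6 genes (left) and the KDM5 genes (right) in each library, stacked by member with autosomal members in greys, X-linked members in blue and Y-linked members in orange. Sex-linked members are 15.2% and 9.88% of the KDM6 bars and 4.82% and 4.29% of the KDM5 bars in the AZ20 libraries, and Kdm5b fills 80.3% to 88.2% of each KDM5 bar.

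The 3 autosomal members were all higher in AZ20 replicate 2 than in AZ20 replicate 1. In AZ20 replicate 2, Kdm6b was 1.57-fold, Kdm5a 1.44-fold and Kdm5b 1.27-fold of its level in AZ20 replicate 1. Kdm5c was 1.19-fold, Kdm6a 1.06-fold, Uty 0.879-fold and Kdm5d 0.0923-fold. These rest on few reads in AZ20 replicates 1 and 2. Reads numbered 340 and 364 for Kdm5c, 75 and 72 for Kdm6a, 87 and 69 for Uty and 12 and 1 for Kdm5d. Whether autosomal and sex-linked members differ in this respect was not tested. Autosomal genes with at least 6000 exonic bases, as the 3 autosomal members and Kdm5c have, had a median of 0.11 on the log2 scale over 903 genes and 62.2% of them higher in replicate 2. Genes of 1000 to 2000 bases had a median of −0.16. The part of this length difference in the members' values was not tested.

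The partner genes on X and Y differed between the families. Under AZ20, Uty made up 53.9% and 49.1% of the summed TPM of Kdm6a and Uty, so the partners were nearly level. Kdm5d made up 3.89% and 0.314% of the Kdm5c and Kdm5d sum, shares that rest on 12 reads and 1 read of Kdm5d. Among the other listed pairs, the Y-linked share was 70.5% and 64.6% for Usp9x and Usp9y (a deubiquitinase), 55.1% and 35.8% for Ddx3x and Ddx3y (an RNA helicase) and 56.9% and 38.2% for Uba1 and Uba1y (a ubiquitin-activating enzyme). Eif2s3x and Eif2s3y, which encode a subunit of a translation initiation factor, had a Y-linked share of 99.9% and 99.5%. Kdm5c and Kdm5d were thus the listed pair with the lowest Y-linked share, and Eif2s3x and Eif2s3y that with the highest. Kdm5d and Eif2s3x were the gametologs below the 1 TPM filter.

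**Figure D4:**
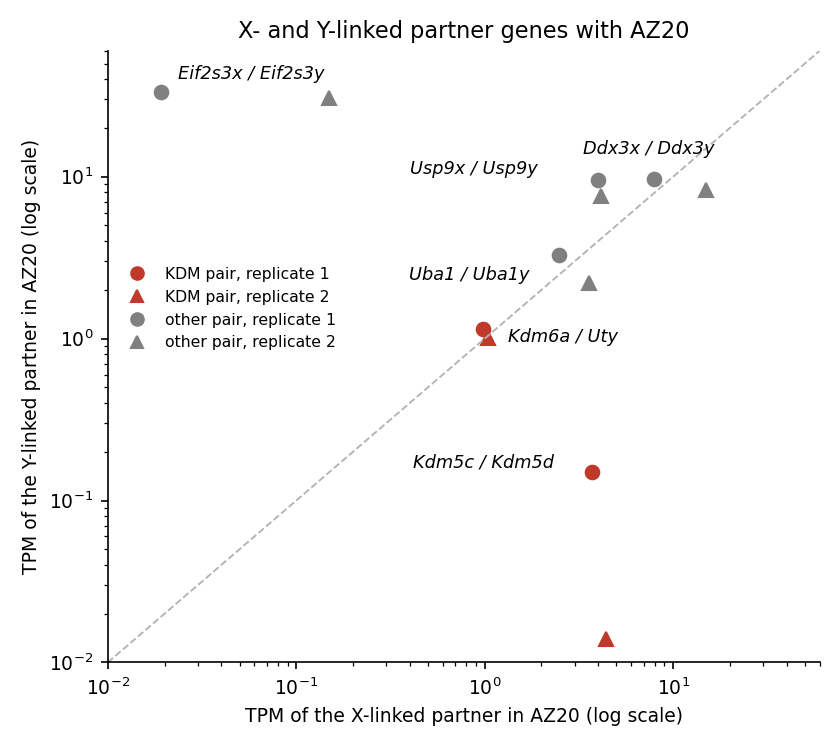
Level of the X-linked partner (x axis) and of the Y-linked partner (y axis) in AZ20, in TPM on log scales, with circles for replicate 1, triangles for replicate 2 and a dashed line of equal levels. Kdm6a and Uty lie on the line near 1 TPM, whereas Kdm5c at 3.73 and 4.43 TPM lies far below it because Kdm5d is at 0.151 and 0.0139 TPM.

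All 6 other Y gametologs were called higher with AZ20, from Uba1y (log2 change 1.89) to Zfy2 (5.72), a zinc finger gene whose level went from 0.563 and 0.0616 TPM to 70.9 and 62.7 TPM. Of the other X gametologs, 3 of the 4 tested were called (Usp9x 2.34, Zfx 3.01 and Ddx3x 3.42), and Uba1 was not (1.62, limma adjusted p = 0.134). Their medians were 3.43 on Y and 2.67 on X, beside 3.21 over all Y-linked and 2.61 over all X-linked genes tested. Kdm6a and Uty lay below the lowest other gametolog tested on their chromosome, and Kdm5c lay between Uba1 and Usp9x.

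Genes that set or read the same marks were described by 4 further lists. The H3K4 methyltransferases of the KMT2 type and their subunits, which add the mark that KDM5 enzymes remove, had 15 of 17 listed genes tested and 0 called in either direction. Their median change was 0.25, from Pagr1a (−0.17) to the X-linked Hcfc1 (1.44, limma adjusted p = 0.122). Hcfc1, a chromatin cofactor, was at 0 TPM in both Ctrl libraries and at 1.91 and 1.54 TPM in AZ20. Kmt2d, a methyltransferase whose complex contains the Kdm6a protein, changed by 0.00 ± 0.28.

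PRC2, which sets the mark that KDM6 enzymes remove, had 11 of 13 genes tested and 1 called higher. This was the X-linked Rbbp7, a histone-binding subunit, at 0 and 0.420 TPM in Ctrl and 23.6 and 27.6 TPM in AZ20 (log2 change 4.47, limma adjusted p = 0.000209). The X-linked Ezhip, an inhibitor of PRC2, was at 0 TPM in Ctrl and at 2.06 and 2.01 TPM in AZ20 (1.601, adjusted p = 0.0715). The autosomal members ranged from Ezh2, the catalytic subunit (−0.04), to Aebp2 (0.36).

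Other lysine demethylases and JmjC proteins had 13 of 20 genes tested, all autosomal, and 0 called, with a median of 0.15 and a range from Riox1 (−0.23) to Kdm4c (0.30). The X-linked Phf8 was below the filter, at 0 TPM in Ctrl and 0.0898 and 0.166 TPM in AZ20. Partners of KDM5 proteins in repressor complexes had 13 of 13 tested and 0 called, with a median of 0.28, from Rbpj (−0.18) to Sin3a (0.75, adjusted p = 0.595). Over all lists, 10 of 62 tested genes were called higher and 0 lower. Those 10 were among the 13 sex-linked genes. Of the 49 autosomal genes 0 were called by limma and 1 (Emsy, 0.61) had an unadjusted p under 0.05. Their median of 0.17 stood beside 0.06 over all autosomal genes.

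**Figure D5:**
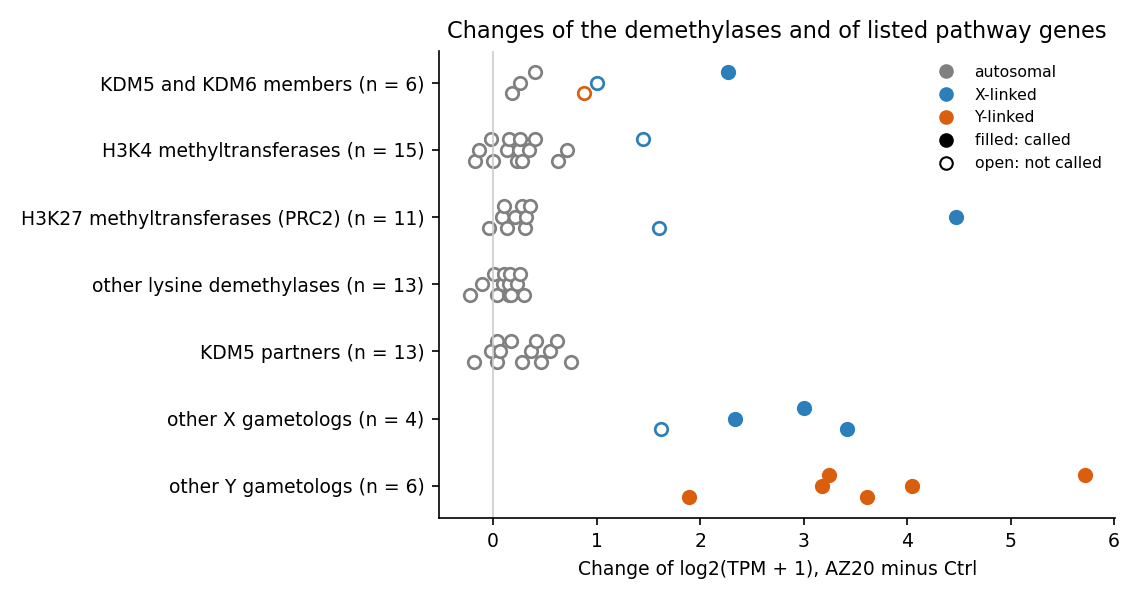
Change of log2(TPM + 1) from Ctrl to AZ20 (x axis) for the 6 tested members and the tested genes of each list, 1 point a gene, coloured by chromosome class and filled where called; vertical offsets within a row only separate points. All filled points are X- or Y-linked, and every autosomal point lies between −0.23 and 0.75.

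Called neighbours were found around the sex-linked members only. Of the 5 nearest tested genes on each side, 5 of 10 around Kdm6a (Ddx3x, Maoa, Efhc2, Fundc1 and Ndufb11) and 5 of 10 around Kdm5c (Tsr2, Hsd17b10, Ribc1, Smc1a and Usp51) were called higher, against 63.3% of all X-linked genes. The 10 genes around each had median changes of 2.41 and 1.87, and the lowest around Kdm5c was 4930524N10Rik (−0.17). The farthest lay 4934 kb from Kdm6a and 2088 kb from Kdm5c. Smc1a, which encodes a cohesin subunit, was at 0 TPM in Ctrl and at 10.1 TPM on average in AZ20. Around Kdm5d and Uty, which are neighbours on the short arm of Y, 6 of 7 tested neighbours of each were called. These were the same 6 other Y gametologs. Only 8 Y-linked genes were tested, so the counts largely repeat the share of them called higher (75.0%). The uncalled gene nearest in order to Uty was Gm20871 (0.03), which lay 58448 kb away. Around Kdm6b, Kdm5a and Kdm5b, 0 of 10 genes each were called, with medians of 0.12, −0.01 and 0.18.

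The 3 genes with the pattern most like each member, by Euclidean distance in log2(TPM + 1) over the 4 libraries, were X-linked for both X-linked members. For Kdm6a they were Tbc1d8b (0.0735), Ppp1r3f (0.0853) and Mid1 (0.152), and for Kdm5c they were Maged1 (0.0977), Maged2 (0.143) and Usp9x (0.148). For Uty they were the autosomal Ulk3 (0.0866), C1ql4 (0.183) and 4930413E15Rik (0.245). The nearest genes were autosomal for Kdm5a (Tgfbr1, Sf3b3 and Tex264) and Kdm5b (Eny2, AI597468 and Upf1). With 4 libraries, this measure mostly groups genes of like level.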

How the data were processed

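Per the labels and methods, the authors trimmed paired reads (Trimmomatic 0.39), mapped them to GRCm38 (STAR 2.5.4b, unique alignments), counted them on refGene genes (featureCounts 2.0.1) and deposited TPM values, 1 column for each of the 4 libraries. The Source Data also hold the authors' own fold changes and p-values, which were not used.

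Genes above a mean of 1 TPM in either condition were fitted with limma 3.58.1 (R 4.3.3) on log2(TPM + 1), with an intensity trend and no covariate. Reads were recovered from the deposited TPM as whole numbers, since all libraries share a gene's length. They are approximate: 69 of 16857 genes above 0 could not be solved, and a common factor cannot be seen in TPM. The Source Data gave a mean count for 2317 genes, which equalled the recovered reads within 1 in 10000 for 2209 of them, members Kdm6a, Uty, Kdm5a and Kdm5c included, and 108 were corrected by their factor. Intervals of read ratios (exact binomial) and floors of 3 reads cover counting error only. Symbols were placed with GENCODE vM21 or RefSeq (117 of 23420 not placed), 11 listed genes were found under older symbols, and 92 blank lines were left out. Contrasts within libraries were tested by exact permutation. Biopython 1.88 aligned promoters and coding sequences, and scipy 1.17.1, numpy 2.4.6 and pandas 2.3.3 (Python 3.11.15) gave the other values. Fit and recovery were tested on simulated data.

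Replicate numbers pair the libraries, because per the methods each mouse supplied both conditions. Same-numbered libraries deviated together (correlation of deviations 0.231 over 9937 autosomal genes). Members and lists were chosen with earlier results of these data known. Genes are named if they are members, gametologs, called or extreme in a list, called neighbours or among the 3 most alike. The genes most like Kdm6b are not reported here. Kmt2d, Phf8, Ezhip, Emsy and the uncalled neighbours were named after their values were seen. Alternatives were other pseudocounts, filters and scalings, the replicate block, no trend, voom on recovered reads and leaving out each library. Labels and methods give different culture temperatures.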

Additional observations from a re-analysis of the deposited data

How the results depend on the processing

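Of the members, Kdm5c kept its call under 9 of 13 alternatives and its direction under all 13 (log2 change 1.79 to 6.40, adjusted p 1.02e-05 to 0.0935). The 4 that lost it each left out 1 library. Near 0 TPM in Ctrl, Kdm5c had little room to change direction. The number of members called higher was 0 with a filter at a mean TPM above 5, which leaves out every sex-linked member, and 2 (Kdm5c and Kdm6a) with voom on recovered reads, with or without the replicate block. With 1 library left out it was 0 in each case (unadjusted p under 0.05 for 1 to 3 members), and the number of listed genes called was 0 to 8. Adding the replicate number as a block to the limma fit gave 1 called member (Kdm5c) and 13 called listed genes, changed no member's call, and raised the calls of higher genes from 235 to 424 and of lower genes from 5 to 23. Kdm6a was called in 2 of 12 alternatives, both voom fits (adjusted p = 0.0280, and 0.00107 with the block), and its adjusted p ran from 0.00107 to 0.746. Uty, Kdm5a, Kdm5b and Kdm6b were called in none. The change of Kdm6b ran from −0.13 (without AZ20 replicate 2) to 0.48 (without AZ20 replicate 1). The contrast of Kdm5d with Kdm5a became 0.32 with a pseudocount of 0.1 and 2.19 with 0.01, and −0.63 to 0.039 with 1 library left out. The contrast of Kdm5d with Kdm5b became 0.50 and 2.37, and −0.41 to 0.11. The other 4 contrasts kept their sign, which had little room to change with the sex-linked gene near 0 TPM in Ctrl. Their sizes also depend on the pseudocount. With 0.1 and 0.01 they were 3.28 and 6.48 (Kdm6a against Kdm6b), 2.43 and 4.18 (Uty against Kdm6b), 4.40 and 5.93 (Kdm5c against Kdm5a) and 4.58 and 6.11 (Kdm5c against Kdm5b), and the gametolog medians were 5.27 and 6.23 on X and 5.75 and 7.88 on Y. The sex-linked share of the KDM5 family in AZ20 was 4.08% by reads instead of 4.56% by TPM. Quantile normalization moved the median change of all genes from 0.07 to −0.07, and of the other demethylases from 0.15 to −0.11. Depth limits Kdm5d, with at most 12 reads, and the Ctrl values of Kdm6a, Uty and Kdm5c.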
